A study of Mus musculus with 9 samples.

Results

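The lecticans (Bcan, Ncan, Vcan, Acan), the link proteins (Hapln1, Hapln2, Hapln4), the tenascins Tnr and Tnc and the receptor phosphatase Ptprz1 were chosen by gene symbol, as genes of one extracellular matrix system, and make up 10 of the 22086 genes counted. RNA bound to GFP-tagged ribosomes was sequenced in 3 libraries of whole astrocyte TRAP and 6 of endfeet TRAP, where TRAP stands for translating ribosome affinity purification. All mice carried the transgene tg:Aldh1L1-L10aGFP (strain Aldh1L1 JD130), in which the promoter of the astrocyte gene Aldh1l1 drives a GFP-tagged ribosomal protein, and were 2 months old, and no group without the transgene or without immunoprecipitation was analysed here. Each whole astrocyte library came from the brain of 1 mouse, freed of the choroid plexus, and each endfeet library from brain vessels pooled from 8 mice, to which the perivascular endfeet of astrocytes stay attached.

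Lecticans are chondroitin sulfate proteoglycans that bind the polysaccharide hyaluronan through their N-terminal domain. Link proteins hold that bond in place, and tenascins, of which tenascin-R is known as a trimer, tie lecticans to one another, so that a mesh of hyaluronan and proteoglycans fills the space around brain cells. Ptprz1 is a transmembrane phosphatase with chondroitin sulfate chains, whose secreted form is called phosphacan. It binds tenascins, contactin-1 and the growth factors pleiotrophin and midkine.

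Libraries differed in depth, with 35984144 to 43521208 gene counts in whole astrocyte TRAP and 2319495 (endfeet 6) to 13450588 in endfeet TRAP. A count of 0 allows a level up to a limit taken as 3 counts, which covers counting error only. This limit was 0.0658 to 0.0811 CPM in whole astrocyte and 0.197 to 1.37 CPM in endfeet libraries. Here and below, CPM is the count scaled to a fixed library total and by edgeR's TMM factors between libraries. Endfeet libraries also varied more among themselves, with a common dispersion of 0.725 against 0.0142. Endfeet 1 to 3 carry numbers of one series, and endfeet 4 to 6 and all whole astrocyte libraries those of another (below, series B). The summed CPM of 12 astrocyte markers, led in endfeet TRAP by Slc1a2 and Aqp4, was 10004 to 30347 in endfeet and 23293 to 25567 in whole astrocyte libraries, so astrocyte mRNAs were abundant in both. Of the 12, Aqp4 was called higher (1592 against 499 CPM) and 5 lower (Aldoc, Hes5, Sox9, Aldh1l1, Gjb6), with Aldoc, the leading one in whole astrocyte TRAP, at 681 against 10875 CPM. The vessel preparation was as visible in the counts. Summed levels were 3187 to 4929 against 6.76 to 8.57 CPM for 10 endothelial markers (led by Flt1 and Slco1a4), 4081 to 8573 against 41.4 to 48.7 CPM for 10 mural markers (Rgs5, Acta2) and 931 to 2398 against 46.8 to 82.8 CPM for 8 fibroblast markers (Fmod, Dcn), and all 28 genes of these lists were called higher in endfeet TRAP. Of 10 microglia and macrophage markers (Mrc1, Csf1r), which summed to 254 to 383 against 30.5 to 33.99 CPM, 7 were called higher. Ly6c1, an endothelial marker, had 0 counts in all whole astrocyte libraries. In such bulk samples, fewer cells of a type and less RNA per cell cannot be told apart.

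Of the 10 mRNAs, Ncan, Ptprz1, Tnc and Bcan were higher in endfeet TRAP than in whole astrocyte TRAP and Hapln2 was lower. Vcan, Hapln1, Hapln4 and Tnr did not pass the test, and Acan had too few counts to enter it. Among all 14427 genes tested with edgeR's quasi-likelihood test at a Benjamini-Hochberg adjusted p of 0.05, 20.7% were called higher and 13.9% lower. In 3 of the 9 tested mRNAs (Bcan, Ncan, Ptprz1) all endfeet libraries lay above all whole astrocyte libraries, as in 18.9% of all tested genes, and in 2 (Hapln1, Hapln2) all lay below, as in 23.8%. The median log2 fold change of the 9 mRNAs was 1.17, and that of all tested genes 0.10. The plot by library gives every value.

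**Figure D1:**
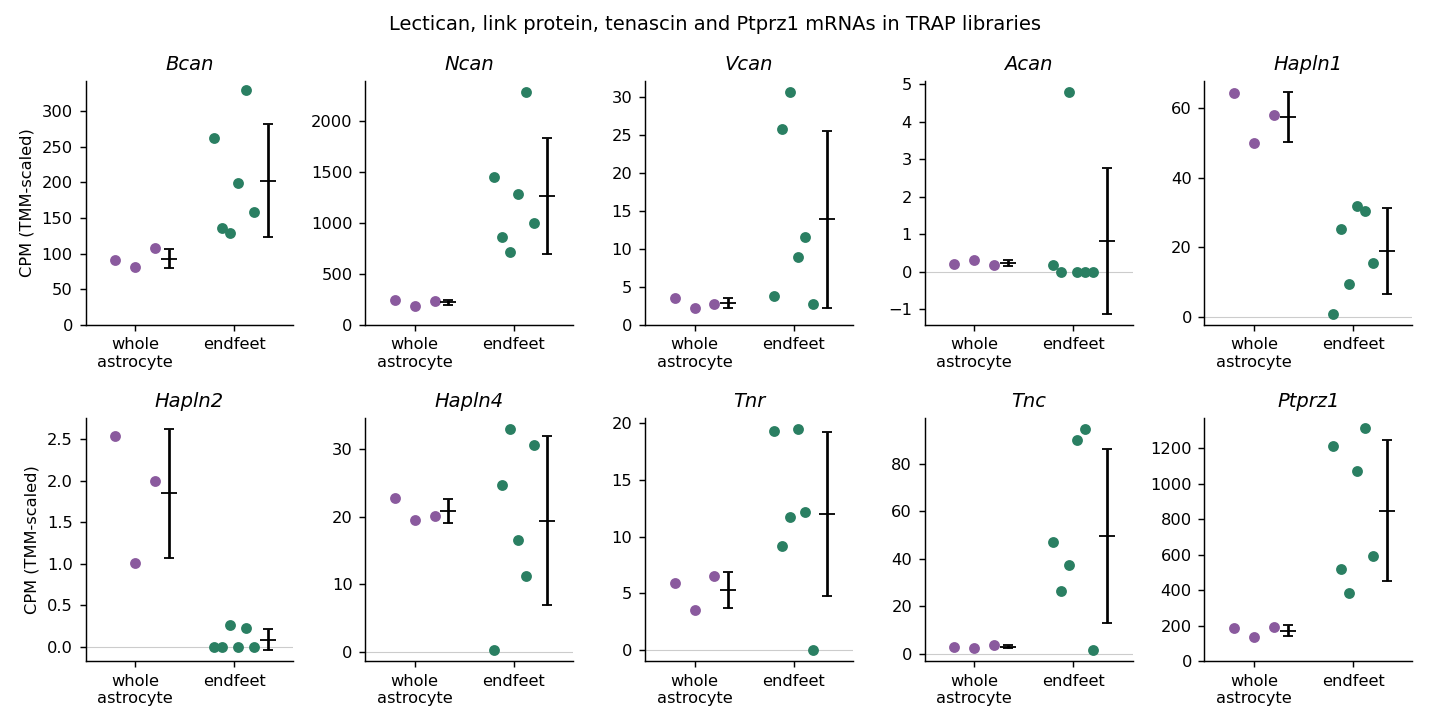
TMM-scaled CPM of the 10 mRNAs in 3 whole astrocyte (purple) and 6 endfeet (green) TRAP libraries, 1 point per library from replicate 1 on the left, with the group mean and SD beside the points and a separate axis for each gene. Bcan, Ncan and Ptprz1 show no overlap with all endfeet points higher, Hapln1 and Hapln2 no overlap with all endfeet points lower, and the single high Acan point is endfeet 3.

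For the 3 mRNAs with all endfeet libraries above all whole astrocyte libraries, and for Hapln2, the one called lower, the sequence around the gene start follows, so that genes higher and lower in endfeet TRAP can be read side by side. Each window runs from 250 bases before to 50 bases after the start given by RefSeq (GRCm38.p6), 5′ to 3′ on the strand of the gene, and capitals mark matches, on either strand, to TATAAA (the letters of a TATA box), to GGGCGG (a GC box) or to ACAATG (a SOX motif).
Ncan (chr8:70120795-70121094, minus strand): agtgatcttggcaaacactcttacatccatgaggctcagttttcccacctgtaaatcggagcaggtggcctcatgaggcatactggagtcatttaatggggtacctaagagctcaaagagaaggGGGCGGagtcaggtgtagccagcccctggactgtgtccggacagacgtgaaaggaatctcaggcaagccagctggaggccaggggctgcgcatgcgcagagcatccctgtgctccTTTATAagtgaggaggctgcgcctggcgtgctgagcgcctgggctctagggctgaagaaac
Bcan (chr3:88000307-88000606, minus strand): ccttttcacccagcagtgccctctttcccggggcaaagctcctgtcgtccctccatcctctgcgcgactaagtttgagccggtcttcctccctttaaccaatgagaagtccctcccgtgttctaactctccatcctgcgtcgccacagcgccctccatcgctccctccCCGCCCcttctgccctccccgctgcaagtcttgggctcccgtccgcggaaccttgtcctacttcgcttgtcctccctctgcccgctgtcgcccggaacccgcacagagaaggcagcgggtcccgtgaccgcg
Ptprz1 (chr6:22875252-22875551, plus strand): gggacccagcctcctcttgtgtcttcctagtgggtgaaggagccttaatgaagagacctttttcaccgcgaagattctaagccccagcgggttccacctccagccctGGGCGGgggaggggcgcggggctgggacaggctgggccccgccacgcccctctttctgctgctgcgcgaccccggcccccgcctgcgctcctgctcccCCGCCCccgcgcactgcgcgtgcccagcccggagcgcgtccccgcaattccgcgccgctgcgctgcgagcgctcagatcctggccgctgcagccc
Hapln2 (chr3:88027462-88027761, minus strand): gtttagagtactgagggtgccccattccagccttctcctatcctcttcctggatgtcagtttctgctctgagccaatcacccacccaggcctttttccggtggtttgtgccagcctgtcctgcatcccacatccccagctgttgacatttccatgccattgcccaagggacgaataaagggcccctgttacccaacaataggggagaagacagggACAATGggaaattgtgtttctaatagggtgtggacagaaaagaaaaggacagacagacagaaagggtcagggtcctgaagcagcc

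A window was found for 9 of the 10 genes, all but Hapln4, although that of Tnr lies 213741 bp from the start of the counted transcript. GGGCGG was present in 6 of the 9 (Bcan, Ncan, Vcan, Acan, Tnc, Ptprz1) and in 35.7% of all 32851 windows. TATAAA was present in Ncan and Tnc and in 13.6% of windows, and ACAATG in Hapln2 and in 12.6%. The AP-1 letters TGANTCA (7.81% of windows) and the palindromic NFI motif (0.0365%) were in none of the 9. G and C made up 56.7% of the Ncan window, 64.0% of Bcan, 71.7% of Ptprz1 and 52.0% of Hapln2, against a median of 52.7%. The other windows had 61.0% (Vcan), 74.0% (Acan), 54.3% (Hapln1), 48.0% (Tnr) and 47.3% (Tnc). Tnc, also called higher in endfeet TRAP, was thus below the median. These matches describe the letters in the windows only.

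Among the lecticans, Ncan (mm10 chr8:70093085-70120873, minus strand, as all positions of the counted transcripts below), which encodes neurocan, a proteoglycan made by both neurons and astrocytes of the brain, had the highest CPM in both groups. Its level was 238, 187 and 230 CPM in whole astrocyte libraries 1 to 3 and 1445, 861, 716, 1283, 2284 and 998 CPM in endfeet libraries 1 to 6, where CPM are scaled between libraries by edgeR's TMM factors. Every endfeet library was thus above every whole astrocyte library by a wide gap. The group means were 1265 ± 567 (SD, n = 6) and 218 ± 27.7 CPM (SD, n = 3), a 5.79-fold higher level in endfeet TRAP, with a log2 fold change of 2.53 (SE 0.384, edgeR adjusted p = 2.4e-04). Within series B alone the log2 fold change was 2.67. Counted per kilobase of transcript, which makes levels of different genes comparable, Ncan ranked 153rd of 22086 genes in endfeet TRAP and 2412th in whole astrocyte TRAP.

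Bcan (chr3:87987531-88000230, minus strand) encodes brevican, the lectican with the shortest core protein, found around synapses and in perineuronal nets. It stood at 90.6, 80.5 and 108 CPM in whole astrocyte libraries 1 to 3 and at 262, 136, 129, 199, 330 and 159 CPM in endfeet libraries 1 to 6. All endfeet values were the higher ones, although endfeet 3 was close to whole astrocyte 3. The means of 202.6 ± 79.2 (n = 6) and 92.9 ± 13.7 CPM (SD, n = 3) gave a 2.18-fold difference, with a log2 fold change of 1.13 (SE 0.345, edgeR adjusted p = 0.0229) and of 1.17 within series B. The call was lost without any one of the 3 whole astrocyte libraries (edgeR adjusted p = 0.0813, 0.115 and 0.0626 without libraries 1, 2 and 3) and without endfeet 4 (0.0538) or endfeet 5 (0.0681), while the log2 fold change stayed between 0.81 and 1.40 in the 21 alternatives.

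The difference between Ncan and Bcan appeared inside each library as well. Bcan had 0.380, 0.431 and 0.468 counts for each count of Ncan in whole astrocyte libraries 1 to 3, and between 0.144 (endfeet 5) and 0.181 (endfeet 1 and 3) in endfeet libraries. This ratio does not depend on the scaling between libraries, and its spread was small in both groups. On the log2 scale, with 0.5 count added to each gene, it was −2.62 ± 0.13 (SD, n = 6) in endfeet and −1.24 ± 0.15 (n = 3) in whole astrocyte libraries, 2.61-fold lower in endfeet TRAP. The two-sided exact permutation test over 84 splits gave p = 0.0119, the smallest these groups allow, and 0.0179 after adjustment over the 6 ratios tested. Per kilobase, Ncan accounted for 72.3% ± 2.11 of the summed level of the 4 lecticans in endfeet TRAP (69.2% to 74.98%) and for 50.5% ± 2.56 in whole astrocyte TRAP (48.1% to 53.2%), and Bcan for 27.0% ± 1.68 and 49.1% ± 2.63.

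**Figure D2:**
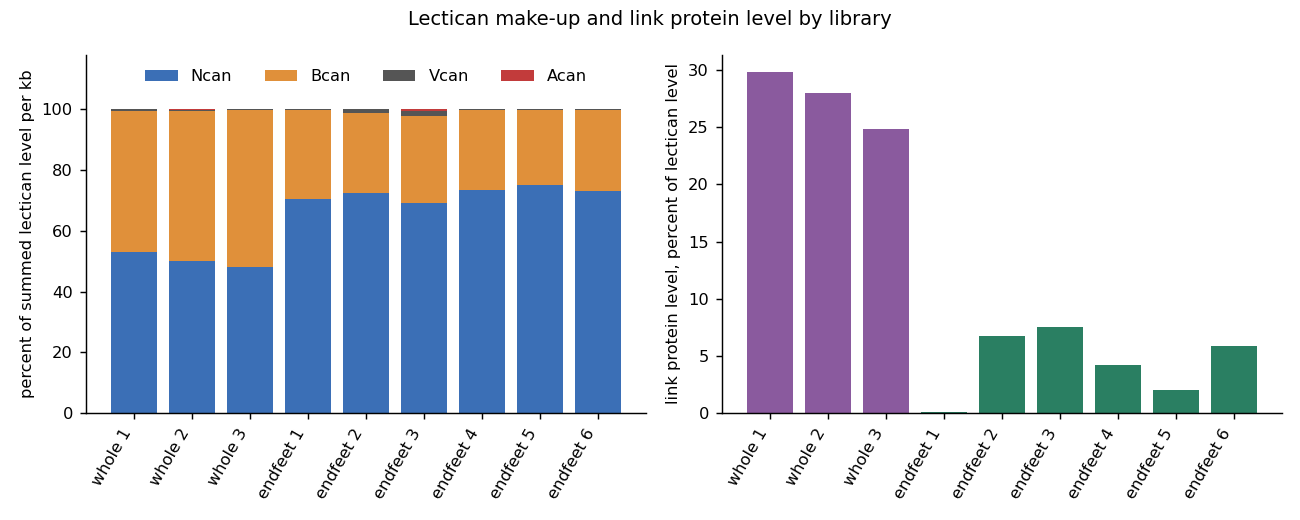
Left, share of each lectican in the summed lectican level (TMM-scaled CPM per kilobase) of each library. Right, summed level of Hapln1, Hapln2 and Hapln4 as a percent of that of the lecticans. Ncan takes 69.2% to 74.98% in the endfeet libraries and 48.1% to 53.2% in the whole astrocyte libraries, and the link proteins reach 24.9% to 29.9% in whole astrocyte and at most 7.54% in endfeet libraries.

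Vcan (chr13:89655312-89742509, minus strand) encodes versican, a large lectican of brain and of vessel walls. It was counted at 3.57, 2.17 and 2.79 CPM in whole astrocyte libraries 1 to 3 and at 3.75, 25.7, 30.7, 8.93, 11.5 and 2.74 CPM in endfeet libraries 1 to 6. Endfeet libraries were thus spread over a wide range, and endfeet 6, with 6 counts, lay inside the whole astrocyte range. The log2 fold change of 2.30 (SE 0.912) did not pass the test (edgeR adjusted p = 0.0674, group means 13.9 ± 11.7 and 2.84 ± 0.70 CPM), and it was 1.33 within series B. It passed without endfeet 1 (edgeR adjusted p = 0.0262) or endfeet 6 (0.0246) and with DESeq2 or limma. Mural cells and fibroblasts also express Vcan, and their summed markers were higher in every endfeet library than in any whole astrocyte library. Their part in the Vcan level was not tested.

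Reads were not spread alike over the Vcan exons. Of the counts on Vcan-203, the counted transcript, 49.2%, 35.4% and 28.3% in whole astrocyte libraries 1 to 3 lay in the 6725 bp that the shorter form Vcan-202 lacks, a stretch chosen after its values were seen. In endfeet libraries 1 to 6 the share was 100%, 80.4%, 92.3%, 12.6%, 63.5% and 100%. These shares were of 20, 224, 467, 111, 156 and 6 counts, so those of endfeet 1 and 6 rest on few. Endfeet 4 was therefore the only endfeet library under the whole astrocyte values. In it, a transcript with a retained intron, Vcan-207, had 90 counts beside the 111 of Vcan-203, and in the other libraries Vcan-207 had 0 to 19. The transcripts share 597 bp, and how many reads were counted on both cannot be read from the counts. The planned test of transcript proportions gave no value for any of the 10 genes, since those with at least 100 counts in every whole astrocyte library had 1 counted transcript each.

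Acan (chr7:79053483-79115099, plus strand), which encodes aggrecan, the lectican of cartilage and of perineuronal nets, was near the limit of detection. Whole astrocyte libraries 1 to 3 had 8, 12 and 8 counts (0.216, 0.318 and 0.176 CPM). Endfeet 1 had 1 count, endfeet 3 had 73 (4.80 CPM) and the other 4 endfeet libraries had 0. A level like that of whole astrocyte TRAP was not detectable at the depth of most endfeet libraries, and Acan failed the filter on low counts, so no fold change was computed.

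Each link protein gene lies beside a lectican gene in the mouse genome (mm10), with 0 annotated genes between them. The neighbours are Bcan and Hapln2 (chromosome 3, 21519 bp apart), Ncan and Hapln4 (chromosome 8, 2222 bp) and Vcan and Hapln1 (chromosome 13, 43659 bp). The fourth pair is Acan with Hapln3 (chromosome 7, 2 bp), a link protein of other tissues. In each of the first 3 pairs the ratio of lectican to link protein counts was higher in all 6 endfeet libraries than in any whole astrocyte library. The groups did not overlap in the other ratios tested either, and no share over other pairs of genes was computed. The summed link protein level per kilobase was 27.6% ± 2.51 (SD, n = 3) of the summed lectican level in whole astrocyte TRAP and 4.41% ± 2.90 (n = 6) in endfeet TRAP, with no overlap between groups. This percent depends on both sums. From whole astrocyte to endfeet TRAP, mean Ncan rose from 30.4 to 176 CPM per kb and Bcan from 29.6 to 64.5. Mean Hapln1 went from 10.1 to 3.32, Hapln4 from 5.70 to 5.31 and Hapln2 from 0.790 to 0.0345.

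Hapln1 (chr13:89539796-89611652, plus strand), the link protein of cartilage and of perineuronal nets, was the most abundant of the 3 per kilobase in whole astrocyte TRAP. Its level was 64.4, 50.02 and 58.1 CPM in whole astrocyte libraries 1 to 3 and 0.938, 25.3, 9.59, 32.0, 30.5 and 15.5 CPM in endfeet libraries 1 to 6. All endfeet values were lower, from 5 counts in endfeet 1 upward, but the means of 19.0 ± 12.4 and 57.5 ± 7.20 CPM did not pass the test (log2 fold change −1.59, SE 0.692, edgeR adjusted p = 0.0914). Without endfeet 1 the adjusted p was 0.0233 (log2 fold change −1.35), within series B 0.0286 (−1.26) and with limma 0.00712 (−1.96). Vcan had 0.0434 to 0.0554 counts per count of Hapln1 in whole astrocyte and 0.176 to 4 in endfeet libraries, a log2 difference of 4.01 (exact permutation p = 0.0238, adjusted 0.0286), higher in 6 of 6 endfeet libraries. Without endfeet 2 the adjusted exact permutation p was 0.0643.

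Hapln2 (chr3:88021750-88027583, minus strand), also named Bral1, is a link protein of the nodes of Ranvier, known to be made by oligodendrocytes. It had 94, 38 and 91 counts in whole astrocyte libraries 1 to 3 (2.54, 1.01 and 2.00 CPM) and 4 and 3 counts in endfeet 3 and 5 (0.263 and 0.221 CPM), with 0 in the other 4 endfeet libraries. Hapln2 fell by 4.10 on the log2 scale (SE 1.17, edgeR adjusted p = 0.0160), a size that rests on few counts and on the prior count of the fit. The value within series B was −4.29. The call was lost without whole astrocyte 1 (edgeR adjusted p = 0.0862) or 3 (0.0700), and the transcript that stands for the gene retains an intron. Oligodendrocyte markers, 9 genes led by Mal (called higher in endfeet TRAP) and Cnp (called lower), summed to 389 to 581 CPM in endfeet and 577 to 603 CPM in whole astrocyte libraries, with 1 endfeet library inside the whole astrocyte range, and their part in the Hapln2 level was not tested. The log2 ratio of Bcan to Hapln2, with 0.5 count added to each, was 10.58 in endfeet and 5.73 in whole astrocyte libraries (exact permutation p = 0.0119, adjusted 0.0179), and its size rests on the added count.

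Hapln4 (chr8:70083457-70090862, plus strand), or Bral2, a link protein of perineuronal nets in brainstem and cerebellum, showed no common direction. Whole astrocyte libraries 1 to 3 had 22.8, 19.5 and 20.2 CPM and endfeet libraries 1 to 6 had 0.188, 24.7, 33.0, 16.6, 11.2 and 30.6 CPM, with 3 endfeet libraries above and 3 below all whole astrocyte libraries. The log2 fold change was −0.10 (SE 0.862, edgeR adjusted p = 0.938) and turned positive with scaling on astrocyte markers (0.63), without whole astrocyte 1 (0.0076) and without endfeet 1 (0.12). Ncan had 9.60 to 11.4 counts per count of Hapln4 in whole astrocyte libraries and more in all 6 endfeet libraries, from 21.7 in endfeet 3 to 7704 in endfeet 1, which held a single Hapln4 count. That log2 difference of 3.42 did not pass the exact permutation test (p = 0.0595), and it was 2.32 without endfeet 1 and 2.93 within series B. The 10 neuronal markers, led by Snap25 and Syt1, summed to 1085 to 2083 CPM in endfeet and 3718 to 4283 CPM in whole astrocyte libraries, and 3 of the 10 were called lower. Neurons also express Hapln1 and Hapln4, and the part of neuronal mRNA in these levels was not tested.

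Tnc (chr4:63959785-64047015, minus strand) encodes tenascin-C, the tenascin of developing and injured tissue, and had the largest rise of the 9 tested mRNAs. It stood at 2.57, 2.38 and 3.66 CPM in whole astrocyte libraries 1 to 3 and at 47.1, 26.3, 37.3, 90.3, 94.9 and 1.37 CPM in endfeet libraries 1 to 6. In 5 of 6 endfeet libraries the level was far above the whole astrocyte range, and in endfeet 6, the shallowest, it rested on 3 counts. The means of 49.5 ± 36.7 and 2.87 ± 0.69 CPM gave a 17.3-fold difference, with a log2 fold change of 4.11 (SE 0.976, edgeR adjusted p = 0.00558) and of 4.31 within series B. A gene on the opposite strand, 8030451A03Rik, overlaps the span of the counted Tnc transcript, and counts were not stated to use strand. Overlap of exons was not checked, so reads of that gene may be among those counted for Tnc. The same holds for Vcan with Gm4117 and Gm16318 and for Hapln1 with Gm8546. Gm38039 overlaps the Tnr gene but lies outside the counted Tnr transcript.

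Tnr (chr1:159737510-159924397, plus strand), tenascin-R, is the tenascin of the adult central nervous system and is made mainly by oligodendrocyte lineage cells and some neurons. It had 5.92, 3.55 and 6.56 CPM in whole astrocyte libraries 1 to 3 and 19.3, 9.19, 11.7, 19.5, 12.2 and 0 CPM in endfeet libraries 1 to 6. It was above the whole astrocyte range in the same 5 libraries as Tnc, but the log2 fold change of 1.17 (SE 0.987) did not pass the test (edgeR adjusted p = 0.382), with 0.88 within series B. Tnr had 1.49 to 2.31 counts per count of Tnc in whole astrocyte libraries and 0 to 0.410 in endfeet libraries. The order of the tenascins was thus turned around, with a log2 ratio of 0.87 ± 0.32 in whole astrocyte and −2.07 ± 0.70 in endfeet libraries (SD, exact permutation p = 0.0119, adjusted 0.0179). Of 8 oligodendrocyte precursor markers 7 were found, and they summed to 164 to 305 CPM in endfeet and 181 to 190 CPM in whole astrocyte libraries. These like sums came from different genes. In endfeet TRAP 3 were called higher, Pdgfra (131 against 7.88 CPM), Cspg4 and C1ql1 (12.4 against 1.24 CPM). Mural cells and fibroblasts share Pdgfra and Cspg4 with precursors. The 1 called lower was Tmem100 (22.8 against 168 CPM), which made up most of the whole astrocyte sum. Their part in the Tnr level was not tested.

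Ptprz1 (chr6:22875502-23052916, plus strand) was counted at 190, 137 and 194 CPM in whole astrocyte libraries 1 to 3 and at 1213, 519, 386, 1073, 1314 and 592 CPM in endfeet libraries 1 to 6. The groups did not overlap, and the lowest endfeet library, endfeet 3, was also the lowest for Ncan and Bcan. Endfeet 5 was the highest for all 3 genes. The summed astrocyte markers were 28014, 13370, 10004, 25758.5, 30347 and 18581 CPM in endfeet libraries 1 to 6. Their part in the levels of these genes was not tested. The means of 850 ± 397 (n = 6) and 174 ± 32.2 CPM (SD, n = 3) gave a 4.89-fold higher level in endfeet TRAP, with a log2 fold change of 2.29 (SE 0.426, edgeR adjusted p = 0.00112) and of 2.38 within series B. Ptprz1 ranked 335th of all genes per kilobase in endfeet TRAP and 3225th in whole astrocyte TRAP. It gained on Bcan within libraries, from 1.70 to 2.10 counts per count of Bcan in whole astrocyte to 2.98 to 5.39 in endfeet libraries, a 2.16-fold higher ratio in endfeet TRAP (exact permutation p = 0.0119, adjusted 0.0179). The plots of fold changes and of ratios show both kinds of comparison.

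**Figure D3:**
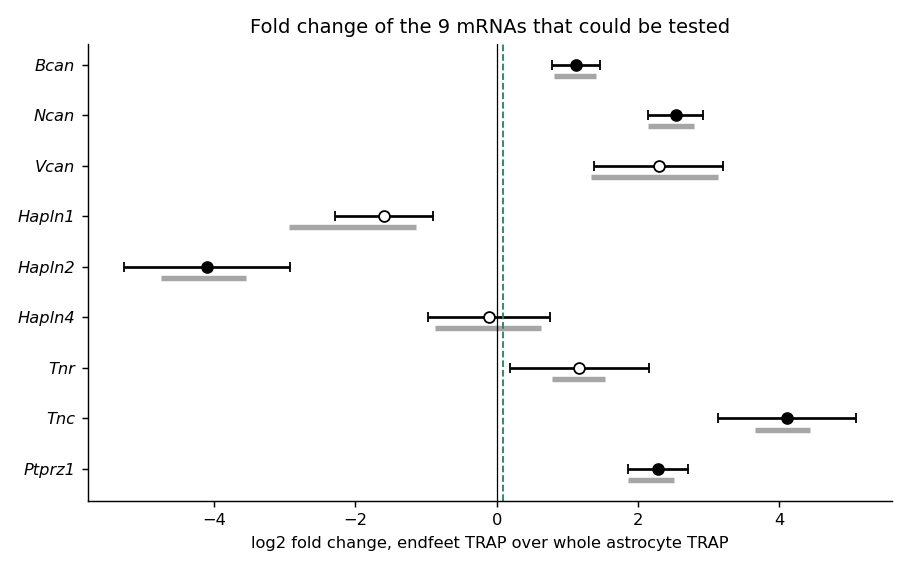
Log2 fold change (endfeet over whole astrocyte TRAP) of the 9 mRNAs that could be tested, as points with SE bars, filled where the edgeR adjusted p was at most 0.05, with grey bars for the range over the alternatives and a dashed line at the median of all genes, 0.10. The grey bar of Hapln4 alone crosses 0, and Ncan, Tnc and Ptprz1 lie between 1.86 and 4.44 in all alternatives in which they were tested.

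**Figure D4:**
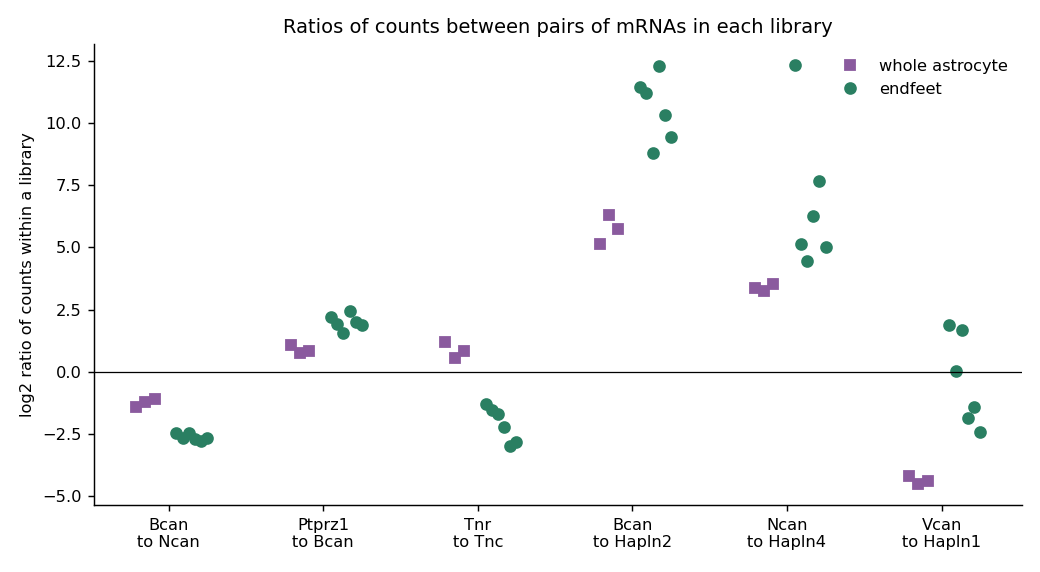
Log2 of the ratio of counts between 6 pairs of mRNAs within each library, with 0.5 count added to each, for 3 whole astrocyte (purple squares) and 6 endfeet (green circles) libraries. In every pair the groups do not overlap, with Bcan to Ncan the tightest (SD 0.13 in endfeet libraries) and Ncan to Hapln4 pulled upward by endfeet 1, which had 1 count of Hapln4.

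Per kilobase, the order in endfeet TRAP was Ncan (176 ± 78.8 CPM per kb), Ptprz1 (105 ± 49.2) and Bcan (64.5 ± 25.2), each above the next in all 6 libraries, followed by Tnc (6.98). Tnc, Hapln4, Hapln1, Tnr and Vcan could not be ordered in all libraries, Tnc being above Hapln4 in 3 of 6. In whole astrocyte TRAP, Ncan (30.4 ± 3.85) and Bcan (29.6 ± 4.36) were not separated, Ncan being the higher in 2 of 3 libraries. Below them came Ptprz1 (21.5 ± 3.996), Hapln1 (10.1), Hapln4 (5.70), Tnr (1.21), Hapln2 (0.790), Tnc (0.404), Vcan (0.229) and Acan (0.0321), each above the next in all 3 libraries. By mean level, Tnc thus stood in the eighth place in whole astrocyte TRAP and in the fourth in endfeet TRAP.

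Over the 9 libraries the log2(CPM + 1) values of Ptprz1 were most like those of Scn7a (Pearson r = 0.986), Scn4b (0.980) and Ncan (0.980) among 10199 genes with a mean of at least 10 CPM. The nearest to Bcan were Sc5d (0.984), Spon1 (0.975) and Tm7sf3 (0.966), and the nearest to Ncan were Plxnb1 (0.994), Ptdss1 (0.986) and 9530068E07Rik (0.983). Ptprz1 and Bcan had r = 0.962 and Bcan and Ncan 0.941. These coefficients describe 9 libraries, in which the libraries of a group share preparation and depth range, and carry no test.

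Other genes of the same matrix were read from 6 lists of 60 genes in all, of which 55 were tested, 30 were called higher in endfeet TRAP, 1 lower and 24 neither. Their median log2 fold change was 1.88. Over all 14427 genes tested the median was 0.10, with 20.7% called higher and 13.9% lower. The counts of each list below are to be read beside those same shares. Endothelial, mural and fibroblast markers rose in the same libraries, and the part of vascular cells in these counts was not tested. Of 8 genes for the synthesis and binding of hyaluronan, 6 were tested, 4 were called higher and 1 lower. Cd44, a hyaluronan receptor, had 97.1 ± 78.8 CPM in endfeet and 6.37 ± 1.75 CPM in whole astrocyte TRAP (log2 fold change 3.93, edgeR adjusted p = 0.00118). Layn, which encodes the receptor layilin (6.92), and Hmmr (5.55) rose as well, whereas Stab2, a scavenger receptor for hyaluronan, fell by 5.99. Hmmr varied widely, from 1.33 to 74.0 CPM in endfeet libraries, against 0.135 to 0.834 CPM in whole astrocyte libraries. Stab2 had 225 to 352 counts in whole astrocyte libraries but 2 and 4 counts in endfeet 2 and 4 and 0 in the other 4, so that the size rests on the prior count of the fit (−7.14 without endfeet 4). Has2, a hyaluronan synthase, had 0 counts in all endfeet and 8, 0 and 16 in whole astrocyte libraries, too few to test, and its level was not detectable at this depth in endfeet TRAP.

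All 12 ligands and partners of Ptprz1 and the tenascins were tested, and 8 were called higher and none lower (median log2 fold change 1.33). Cntn1, the contactin that binds Ptprz1 and tenascins, had 405 ± 130 CPM in endfeet and 112 ± 14.1 CPM in whole astrocyte TRAP (1.85, edgeR adjusted p = 0.000515), and Nfasc, a cell adhesion protein of nodes, rose by 1.92. Itga9 (4.93) and Itgb1 (3.78) encode the subunits of an integrin that binds tenascin-C. The growth factors did not pass the test. Ptn, pleiotrophin, had 383 ± 95.6 and 291 ± 55.1 CPM (0.40, edgeR adjusted p = 0.289), and Mdk, midkine, had −0.28 (adjusted p = 0.803), a sign that turned with scaling on astrocyte markers and with the replicate block.

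Of 6 other brain proteoglycans and family members, 5 were tested and 3 were called higher, Cspg4 (log2 fold change 5.40), Tnxb (5.02) and Ptprg (2.11), the phosphatase nearest to Ptprz1. Tnxb lost its call without whole astrocyte 1 or 3. Cspg5, neuroglycan C, had 129 ± 64.1 CPM in endfeet and 201 ± 13.4 CPM in whole astrocyte TRAP (−0.64, edgeR adjusted p = 0.184), and passed the test as lower without endfeet 1 (edgeR adjusted p = 0.0171), with limma and within series B. Hapln3 had 0.41 (edgeR adjusted p = 0.833), and its sign turned with limma, with the replicate block and without endfeet 5. In chondroitin sulfate chain synthesis 21 of 22 genes were tested, 9 were called higher and none lower, and the largest changes among those called were in Dse (4.19), Chst14 (3.28), Xylt2 (3.04) and B4galt7 (2.68). The calls of Chst14, Xylt2 and B4galt7 were lost with the replicate block and without any one whole astrocyte library (edgeR adjusted p = 0.0756 to 0.155), those of Xylt2 also without any one of endfeet 2 to 6 and of B4galt7 without endfeet 5. Dse and Chst14 act in the conversion of chondroitin to dermatan sulfate, and Xylt2 and B4galt7 in building the linker to the core protein.

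Among 8 proteases known to cut lecticans, 7 were tested and 4 were called higher, Adamts1 (log2 fold change 4.62), Adamts15 (3.49), Adamts5 (2.36) and Adamts9 (2.32). Only Adamts1 kept its call with each library left out. Adamts5 and Adamts15 lost theirs without any one whole astrocyte library and without endfeet 2, 3 or 4, Adamts5 also without endfeet 5, and Adamts9 without whole astrocyte 2 or 3. Of 4 receptors for chondroitin sulfate, the phosphatases Ptprf (2.37) and Ptprs (1.63) were called higher and 2 were not called. The plot of the lists shows the values of all 55 genes. Stab2 was the only gene of the 55 called lower.

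**Figure D5:**
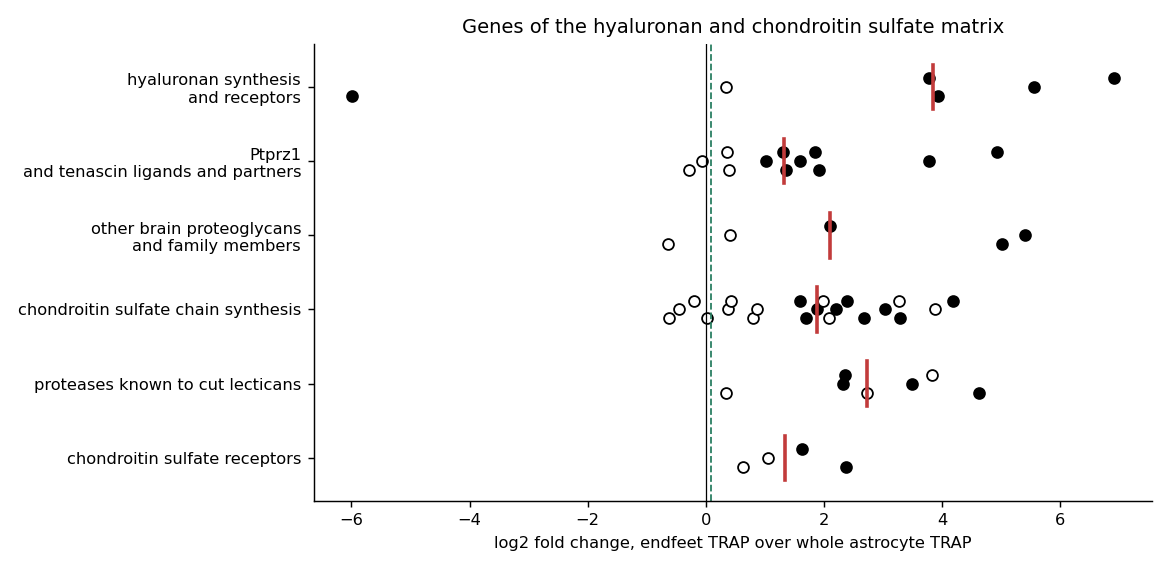
Log2 fold change (endfeet over whole astrocyte TRAP) of the 55 tested genes of 6 matrix lists, 1 point per gene, filled where the edgeR adjusted p was at most 0.05, with a red line at each list's median and a dashed line at the median of all genes, 0.10. Medians run from 1.33 to 3.85, and Stab2 at −5.99 is the 1 filled point below 0.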

How the data were processed

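Per the labels and the study's methods, the authors amplified the polysomal RNA, aligned the reads to mm10 with Bowtie, removed reads with several alignments and counted the rest with HTSeq (HTSeq 0.5.3 in the submitters' processing notes). What they deposited is a raw count for each of 75466 Ensembl transcripts per library, without normalization. GENCODE M21 (also mm10) gave gene names to 73157 of them, in 22086 genes. Since the transcripts of a gene repeat its reads, the one with the largest CPM total over the 9 libraries stood for the gene. Groups came from the sample titles. Both groups were compared with edgeR 4.0.16 in R 4.3.3 (TMM, filterByExpr, glmQLFit, glmQLFTest, Benjamini-Hochberg), with SE as the absolute log2 fold change over the square root of F. Amplified reads are not independent molecules. Whole astrocyte libraries were separate brains and endfeet libraries separate pools, as labelled. Ratios within libraries were tested by exact permutation, two-sided, in Python 3.11.15. The code was tested on simulated data. The members and lists were chosen with earlier results of these data known. Named genes were all members, up to 4 called genes per list by size, Has2, Cd44, Hapln3, Ptn, Mdk, Cspg4 and Cspg5, the 3 nearest genes by correlation and up to 2 leading markers per cell type with those at 0. The sum of oligodendrocyte markers omits a gene not reported here. Aldoc and the other called astrocyte markers, Tmem100, C1ql1 and Cnp were named outside this rule after their values were seen. Alternatives were DESeq2 1.42.0, limma 3.58.1 (voom with group weights), other scalings, filters, transcript choices and batch terms, and each library left out.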

Additional observations from a re-analysis of the deposited data

Results flagged for a closer look

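The Acan level in endfeet 3 (4.80 CPM, 73 counts) stood apart from the other 5 endfeet libraries, which lay between 0 and 0.188 CPM. Its gap to the next library was 0.961 of the whole range, above the limit of 0.625 for 6 samples. Of 16 values examined in this way it was the only one flagged. Chance flags about 1 in 20 of the values examined, so 1 flag among 16 is near what chance gives. The other endfeet libraries had 0 or 1 count of Acan. In the same library Matn4, a gene of the oligodendrocyte precursor list picked after its values were seen, had 52 counts against 0 in the other endfeet libraries.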

How the results depend on the processing

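Ncan (log2 fold change 2.15 to 2.80), Ptprz1 (1.86 to 2.52) and Tnc (3.66 to 4.44) kept their direction and their call in all alternatives in which they were tested (21, 21 and 20), and 3 to 5 of the 10 mRNAs were called higher in each. The count of those called lower, 1 in the main test, was 0 with scaling on the 12 astrocyte markers, with at least 10 counts in every library, with the number series as a covariate, with counts summed over transcripts and with protein-coding transcripts only (an alternative chosen after the data were seen), and 2 with limma and within series B. With each library left out it was 0 (without whole astrocyte 1 or 3) to 2 (without endfeet 1). Hapln2 could not be tested with at least 10 counts or with coding transcripts only. The call of Hapln2 was also lost with scaling on astrocyte markers (edgeR adjusted p = 0.0589), the series covariate (0.0630) and summed transcripts (0.0510). Vcan gained a call with DESeq2 (adjusted p = 0.00685) and limma (0.00334). Over all genes, the calls of higher level ranged from 1874 to 3380 with each library left out, lowest without a whole astrocyte library (1959, 1874 and 1943). The calls of lower level, 2006 in the main test, were 790 with scaling on astrocyte markers, 4493 with limma and 1171 to 2642 with each library left out, lowest again without a whole astrocyte library. Scaling on astrocyte markers moved the median log2 fold change of all genes by 0.46 and the share of higher calls from 59.9% to 79.2%. The share was 46.7% with limma and 49.8% within series B. Shifts of the median were −0.39 with limma, −0.25 within series B, −0.31 with the block, 0.13 with DESeq2 and −0.13 with coding transcripts only.

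Signs turned for Hapln3 (−0.40 with limma, −0.60 with the replicate block, and −0.65 to 0.77 with each library left out, negative without endfeet 5), Hapln4 (0.63 with scaling on astrocyte markers, and −0.34 to 0.12 with each library left out, positive without endfeet 1 and, at 0.0076, without whole astrocyte 1) and Mdk (0.25 with scaling on astrocyte markers, 0.15 with the replicate block), none of them called. Within series B, where 3 against 3 libraries cannot go below an exact permutation p of 0.10, the log2 ratio differences were −1.47 for Bcan to Ncan, 1.21 for Ptprz1 to Bcan, −3.53 for Tnr to Tnc, 4.95 for Bcan to Hapln2 and 2.47 for Vcan to Hapln1. With 1 library left out they ranged from −1.46 to −1.31, from 1.03 to 1.20, from −3.10 to −2.77, from 4.51 to 5.21 and from 3.56 to 4.43, and without a whole astrocyte library the smallest exact permutation p became 0.0536 or higher after adjustment. The proportions of transcripts, and so their alternatives, were not run for want of an eligible gene.

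The replicate numbers did not pair the libraries: deviations of same-numbered libraries had correlations of −0.0359 to 0.0382. Replicate numbers 4 to 6 exist in endfeet TRAP only, so with the replicate number as a block those libraries do not inform the group difference. That fit sets endfeet 1 to 3 against the whole astrocyte libraries, which differ in number series too, and the 2 cannot be told apart in it. In it, 2501 genes were called higher and 1958 lower, Bcan (0.85, edgeR adjusted p = 0.0887) and Hapln2 (−4.45, 0.0885) lost their calls and Hapln1 (−2.94, 0.0479) gained one. Of the other named genes, Xylt2 (1.08, edgeR adjusted p = 0.536), Chst14 (0.0929), B4galt7 (0.0555), Adamts9 (0.0630) and Tnxb (0.0780) lost theirs. The causes were not tested. Depth limits what can be said of Acan, Has2 and Hapln2.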
